A study of Homo sapiens with 6 samples.

Results

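The set called here the expressed genes of 5q23 to 5q34 holds 58 protein-coding genes on the long arm of human chromosome 5. It reaches from SNX24 to MAT2B at chr5:122843439-163519558 (GRCh38), a stretch of 40.7 Mb. The set is a part of that stretch, which holds 115 other expressed genes. The 58 members were chosen from the same comparison described here, because genes of this stretch were higher in Delta-TRRAP than in WT cells. Their log2 fold changes, their calls and the separation of their groups are therefore a description of how the members differ among themselves, and no test is read from them. The test took in every gene whose normalized counts averaged 5 or more, which kept 55 of the 58 members and 19114 of the 34998 genes with a count. The other 3 members, ALDH7A1, DPYSL3 and CD74, had 0 to 7 counts in every library.

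The libraries came from K562, an established human leukaemia line, in which the endogenous EP400 protein carries a dTAG degron. WT cells (endogenous EP400-dTAG + exogenous WT EP400) and Delta-TRRAP cells (the same tagged gene + exogenous EP400 lacking the segment that anchors TRRAP) express their EP400 from the AAVS1 safe harbor locus. All 6 libraries, 3 for each group, followed treatment with 500 nM dTAGV-1, the molecule that degrades the tagged protein, for 24 h. Each complemented line was a single isogenic clone, so clone and genotype cannot be told apart, and errors and p-values measure only the spread between replicate libraries of a clone.

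The TIP60 complex joins the EP400 motor, which exchanges histone H2A for the H2A.Z variant, to a histone acetyltransferase and to TRRAP, a large protein that is bound by transcription activators such as MYC. The members share their position on the chromosome and no common pathway: they include splicing and translation factors, chromatin proteins, signalling enzymes, trafficking proteins and transporters. Loss of this part of the long arm is recurrent in myeloid neoplasms, and CSNK1A1, a kinase of the beta-catenin pathway, and DIAPH1, an actin-nucleating formin, are among its genes studied there.

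The libraries held 35076835 to 42616061 counts in genes. EP400 transcripts, in which endogenous and exogenous copies are not separated by gene counts, ranged over 4897 to 5377 normalized counts (WT) and 4357 to 6833 (Delta-TRRAP). The labels give the cell type as lymphoblast, whereas the erythroid markers were the abundant ones. All 10 erythroid markers were tested, 4 past the threshold and higher and 3 past it and lower, and their summed level ran from 226555 to 228761 normalized counts (WT) and from 131534 to 138953 (Delta-TRRAP), most of it TFRC. Of 6 lymphoid markers, 3 were tested and 1 was lower, MS4A1 was at 0 in every library, and the sums were 89.2 to 109 (WT) and 45.1 to 58.5 (Delta-TRRAP). Of 10 fibroblast markers, 5 were tested, 2 were higher and 1 lower, LUM and PDGFRA were at 0, and the sums were 65.9 to 90.6 (WT) and 942 to 999 (Delta-TRRAP), in the latter nearly all COL1A2. Fewer cells of a type and less RNA per cell cannot be told apart in bulk RNA, and the part of these marker differences in the values of the members was not tested.

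The stretches before the transcription start are shown for 5 members that carry the same hexamer, CACGTG, and stand far apart in expression difference. CACGTG is the E-box bound by MYC and related factors and reads the same on both strands. It was sought in the 250 bases before each RefSeq transcript start (GRCh38.p14), and only bases outside annotated exons are printed, with the E-box in capitals. The lines give JADE2 (chr5:134526382-134526631, + strand) and DIAPH1 (chr5:141619056-141619250, - strand), which were lower in Delta-TRRAP, CEP120 (chr5:123423843-123424092, - strand), which did not pass the threshold, and FNIP1 (chr5:131797018-131797267, - strand) and AFF4 (chr5:132963635-132963769, - strand), which were higher. The JADE2 window lies within the gene, before one of its alternative starts.
JADE2: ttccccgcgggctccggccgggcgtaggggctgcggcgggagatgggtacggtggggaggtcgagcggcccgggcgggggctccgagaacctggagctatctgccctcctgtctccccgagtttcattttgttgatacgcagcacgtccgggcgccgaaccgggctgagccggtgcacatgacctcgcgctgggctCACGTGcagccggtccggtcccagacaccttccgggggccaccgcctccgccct
DIAPH1: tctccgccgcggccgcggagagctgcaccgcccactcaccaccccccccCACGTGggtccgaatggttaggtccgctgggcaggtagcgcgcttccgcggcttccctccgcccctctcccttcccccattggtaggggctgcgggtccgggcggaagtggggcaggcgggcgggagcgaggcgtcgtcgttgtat
CEP120: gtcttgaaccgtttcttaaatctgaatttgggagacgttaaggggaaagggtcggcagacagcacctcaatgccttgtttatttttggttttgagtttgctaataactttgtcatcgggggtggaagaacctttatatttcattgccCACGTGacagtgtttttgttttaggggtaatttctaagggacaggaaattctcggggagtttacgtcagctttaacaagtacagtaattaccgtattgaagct
FNIP1: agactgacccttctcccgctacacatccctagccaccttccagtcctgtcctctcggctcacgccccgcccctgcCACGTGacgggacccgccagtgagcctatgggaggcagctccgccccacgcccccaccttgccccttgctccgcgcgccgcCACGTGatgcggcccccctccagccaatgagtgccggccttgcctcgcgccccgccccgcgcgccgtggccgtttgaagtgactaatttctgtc
AFF4: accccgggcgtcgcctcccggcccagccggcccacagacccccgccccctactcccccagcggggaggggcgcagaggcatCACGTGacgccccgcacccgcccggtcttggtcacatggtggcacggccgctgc

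Of the 58 members, 57 had an entry in the promoter table. CACGTG was found before 8 of the 57 (14%), against 7.73% of all 27305 genes with an entry. Counted by start, it was found in 9 of the members' 102 windows (8.82%), against 6.34% of all 35116. The members' windows had a median GC content of 64%, against 58% for all windows, and its part in these shares was not tested. JADE2 also carried the hexamer in a window not printed here, chr5:134523805-134524054. The other carriers were DCTN4, PAIP2 and SEC24A. The 8 carriers reached from a log2 fold change of -1.69 for JADE2 to 0.97 for DCTN4, with a median of 0.28. The other tested members had the same median of 0.28. They include UBE2B, which had no entry and was not searched. A match is a sequence description only, and no binding was measured here.

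The shift was not uniform. The log2 fold change of Delta-TRRAP over WT had a median of 0.28 over the 55 tested members, with quartiles at 0.03 and 0.67 and extremes at -1.69 for JADE2 and 3.90 for CYFIP2. The median over all 11442 expressed genes, taken as those averaging 100 or more normalized counts, was -0.09. By library, the median member lay at -0.02, 0.01 and 0.02 log2 units from the WT mean in the WT libraries and at 0.32, 0.27 and 0.29 in the Delta-TRRAP libraries. The median was thus higher in every Delta-TRRAP library than in every WT library. The members together took 0.7% to 0.716% of all counts in the WT libraries and 0.874% to 0.89% in the Delta-TRRAP libraries.

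The spread among members was much wider than the error of a single member. The standard deviation of their log2 fold changes was 0.85, against a median standard error of 0.0546. Their interquartile range of 0.64 was close to the 0.70 of all expressed genes, so the members had the usual width of values around a higher centre. Only 14 members lay within 0.1 log2 units of the members' median, and 25 within 0.25. Neighbouring members differed too. Over the 54 pairs of tested members adjacent in map order, the median absolute difference was 0.482. In 41 pairs the difference was over 2 combined standard errors. No such count was made for other pairs of genes, so nothing particular to neighbouring members is read from it.

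Members that passed an adjusted p of 0.01 (edgeR quasi-likelihood test, Benjamini-Hochberg adjustment over all genes tested) and were higher in Delta-TRRAP numbered 35, where 30.7% of all tested genes did so. Members past it and lower numbered 6, beside 27.6% of all tested genes. With a fold change of at least 2 added, 8 members were called higher, beside 16.5% of all tested genes, and 2 were called lower, beside 6.08%. The 3 libraries of each group did not overlap in 38 members that were higher, beside 37.4% of all tested genes, and in 8 that were lower, beside 33.7%. The other 14 members did not pass the adjusted p, and in 9 of the 55 the groups overlapped. All tested members averaged 100 or more normalized counts, and the shares over the 11442 expressed genes differ from those over all tested genes. Of the expressed genes, 27.9% passed the adjusted p and were higher, and 40.1% passed it and were lower. Called higher were 7.0%, beside 14.55% of the tested members, and called lower were 5.93%. The groups did not overlap in 32.6% that were higher and 45.7% that were lower. Since the members were chosen on this contrast, nothing is read from these counts against their backgrounds.

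**Figure D1:**
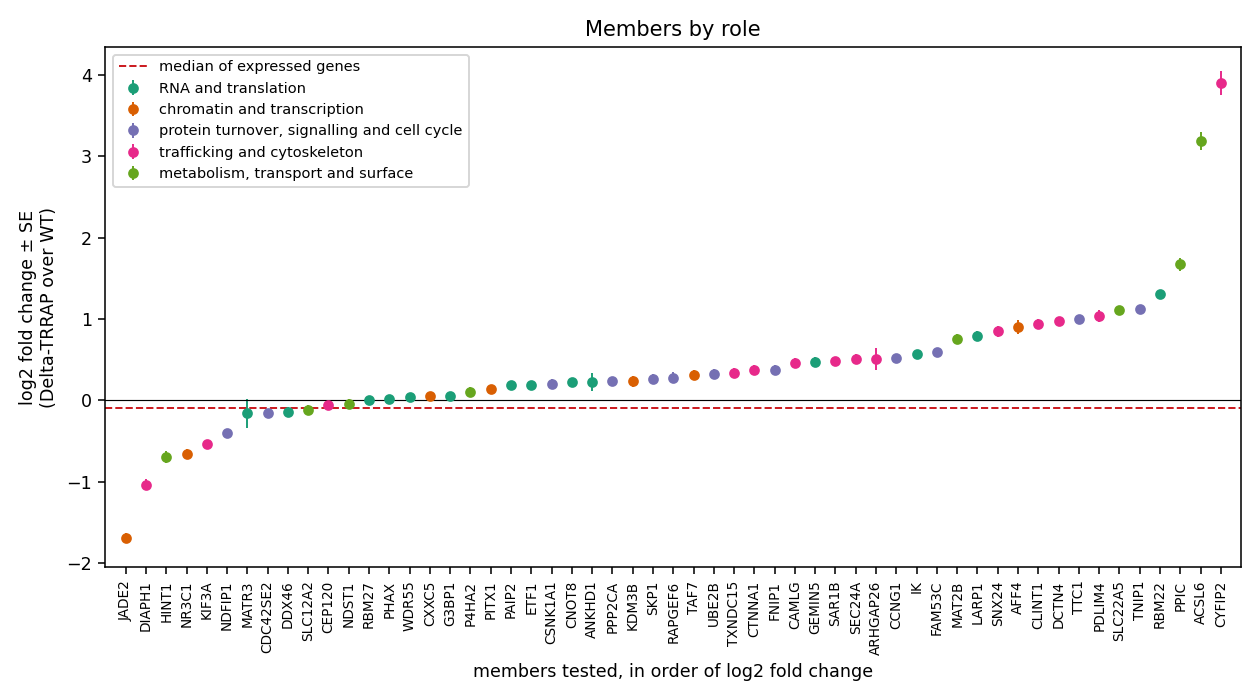
Log2 fold change of Delta-TRRAP over WT (vertical axis) for the 55 tested members in order of that value (horizontal axis), with bars of 1 standard error from the fit to 3 libraries of each group and colours for the role group. The dashed line is the median of expressed genes at -0.09. JADE2 at -1.69 and CYFIP2 at 3.90 bound the range, 10 members lie at or below the line, and each role group has members on both sides of it.

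Of the 55 tested members, 45 lay above the median of expressed genes and 10 at or below it. These 10 are taken here as the members that escaped the shift: JADE2, DIAPH1, HINT1, NR3C1, KIF3A, NDFIP1, MATR3, CDC42SE2, DDX46 and SLC12A2. The first 6 of these passed the adjusted p and fell, and the last 4 did not pass it. Among these, CDC42SE2 passed with RLE scaling, without a filter, with DESeq2 or limma-voom and without WT replicate 1 or Delta-TRRAP replicate 2, and DDX46 passed without a filter. Every role group held 2 of the 10. The line at -0.09 is not a sharp border for members near it. CEP120 (-0.06 ± 0.0509, SE) and NDST1 (-0.04 ± 0.0659, SE) lay just above it, within their error of it. SLC12A2, DDX46 and MATR3, counted among the 10, lay below the line but also within their SE of it. RBM27 (0.00) and PHAX (0.02) were above it without passing the adjusted p.

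JADE2, a scaffold subunit of the HBO1 histone acetyltransferase complex, was the member furthest below the others. Its normalized counts were 1199, 1213 and 1250 in WT and 377, 393 and 362 in Delta-TRRAP. All Delta-TRRAP libraries were far below all WT libraries, with a log2 fold change of -1.69 ± 0.0609 (SE). The WT mean was 1221 ± 26.8 (SD, n = 3) and the Delta-TRRAP mean 377 ± 15.6 (SD, n = 3). The next expressed genes on the map were not lowered with it: CDKN2AIPNL before it had a log2 fold change of -0.08, and the member SAR1B after it had 0.48.

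DIAPH1 had 4820 normalized counts per kb of exon in WT, next to the highest level of all members, 4879 for ETF1. It had 33479, 35466 and 37545 normalized counts in WT and 17383, 18845 and 15850 in Delta-TRRAP, and the groups did not overlap. The log2 fold change was -1.03 ± 0.0657 (SE). Its fold fell short of 2 with upper quartile scaling (-0.93), library size alone (-0.90) or a minimum count of 50 (-0.96), and without WT replicate 3 (-0.995) or Delta-TRRAP replicate 3 (-0.973).

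HINT1, a small purine phosphoramidase, had 17166, 15960 and 14190 normalized counts in WT and 10202, 8832 and 10303 in Delta-TRRAP. The groups were apart although the WT libraries were uneven, and the log2 fold change was -0.69 ± 0.0730 (SE). NR3C1, the glucocorticoid receptor, had 4059, 4181 and 4236 in WT and 2613, 2819 and 2486 in Delta-TRRAP. It was lower in every Delta-TRRAP library, by -0.66 ± 0.0548 (SE) on the log2 scale.

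KIF3A, a motor subunit of kinesin-2, had 1669, 1620 and 1546 normalized counts in WT and 1095, 1142 and 1100 in Delta-TRRAP, with a log2 fold change of -0.53 ± 0.0534 (SE). NDFIP1, an adaptor of NEDD4-family ubiquitin ligases, had 5659, 6136 and 5903 in WT and 4523, 4243 and 4613 in Delta-TRRAP, with -0.40 ± 0.0532 (SE). In both genes the groups were separate, and both differences were smaller than that of NR3C1.

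The last 4 of the 10 stood near the median of expressed genes. CDC42SE2, a small effector of the CDC42 GTPase, had 5213, 5470 and 5459 normalized counts in WT and 4703, 5000 and 4802 in Delta-TRRAP, and a log2 fold change of -0.15 ± 0.0497 (SE). DDX46, an RNA helicase of early spliceosome assembly, had -0.14 ± 0.0525 (SE), and SLC12A2, a sodium-potassium-chloride cotransporter, had -0.11 ± 0.0580 (SE). MATR3, a nuclear matrix RNA-binding protein, had 150, 83.5 and 131 in WT and 101, 107 and 117 in Delta-TRRAP, so that its WT libraries surrounded the Delta-TRRAP libraries. Its log2 fold change of -0.16 ± 0.175 (SE) is uncertain, with low counts and uneven WT libraries. A second gene ID of the same name shares 42.6% of its exon length on the same strand and held 1 to 3 counts in a library. The part of this overlap in its low counts was not tested.

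**Figure D2:**
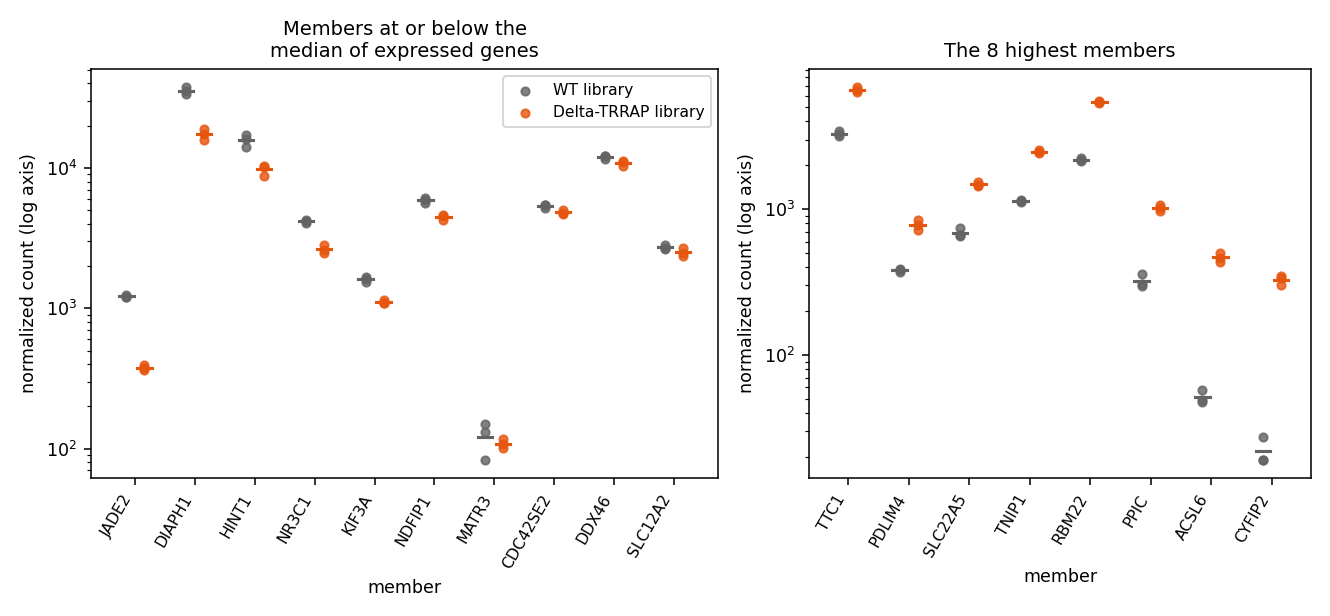
Normalized counts in each library (points, log axis) with group means (bars) for the 10 members at or below the median of expressed genes (left) and the 8 members with the highest log2 fold change (right). JADE2, DIAPH1, HINT1, NR3C1, KIF3A and NDFIP1 are separated downward in Delta-TRRAP, MATR3 overlaps, and all 8 highest members are separated upward, CYFIP2 from about 20 counts.

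At the other end, CYFIP2, a subunit of the actin-regulating WAVE complex, had 19.2, 19.2 and 27.5 normalized counts in WT and 346, 338 and 300.4 in Delta-TRRAP. The gene was scarcely detected in WT and present in all Delta-TRRAP libraries, with a log2 fold change of 3.90 ± 0.146 (SE). ACSL6, a long-chain acyl-CoA synthetase, had 57.8, 48.9 and 47.8 in WT and 436, 465 and 505 in Delta-TRRAP, or 3.18 ± 0.112 (SE). These members also had the lowest WT levels of those tested, at 2.08 and 3.03 normalized counts per kb of exon. PPIC, the peptidyl-prolyl isomerase cyclophilin C, followed with 305, 362 and 296 in WT and 1073, 971 and 1026 in Delta-TRRAP, or 1.67 ± 0.0781 (SE).

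RBM22, a spliceosome factor, had 2133, 2246 and 2186 normalized counts in WT and 5404, 5331 and 5470 in Delta-TRRAP, with a log2 fold change of 1.30 ± 0.0489 (SE). TNIP1, a ubiquitin-binding brake on NF-kB signalling, had 1118, 1142 and 1152 in WT and 2463, 2543 and 2438 in Delta-TRRAP, or 1.13 ± 0.0501 (SE). SLC22A5, the plasma membrane carnitine transporter, had 654, 668 and 743 in WT and 1465, 1525 and 1448 in Delta-TRRAP, or 1.10 ± 0.0610 (SE). In these genes every Delta-TRRAP library lay far above every WT library.

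PDLIM4, an actin-associated PDZ and LIM domain protein, had 388, 370 and 383 normalized counts in WT and 848, 717 and 776 in Delta-TRRAP, or 1.04 ± 0.0737 (SE) on the log2 scale. TTC1, a tetratricopeptide repeat adaptor, had 3153, 3449 and 3280 in WT and 6598, 6359 and 6840 in Delta-TRRAP, or 1.00 ± 0.0533 (SE). TTC1 was the last member inside the fold threshold of 2, and DCTN4 with 0.97 was the first outside it. TTC1 fell short of that fold with RLE scaling, without a filter, with DESeq2 and without WT replicate 1, WT replicate 3, Delta-TRRAP replicate 1 or Delta-TRRAP replicate 3 (0.964 to 0.998), and PDLIM4 did so without Delta-TRRAP replicate 1 (0.968).

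In the middle of the range, RAPGEF6, an exchange factor for Rap GTPases and the median member, had 763, 731 and 797 normalized counts in WT and 873, 888 and 1023 in Delta-TRRAP, with a log2 fold change of 0.28 ± 0.0691 (SE). Every Delta-TRRAP library was above every WT library. Exons of 2 other annotated genes cover 54.9% of its exon length on the same strand, so part of its reads could not be assigned.

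At the lower quartile stood PHAX, the export adaptor of small nuclear RNAs, with 3510, 3375 and 3392 in WT and 3396, 3480 and 3560 in Delta-TRRAP, and WDR55, a ribosome biogenesis factor, with 2491, 2482 and 2559 against 2605, 2619 and 2543. The groups overlapped in both, with log2 fold changes of 0.02 ± 0.0483 (SE) and 0.04 ± 0.0478 (SE). At the upper quartile stood FAM53C, with 3512, 3433 and 3542 in WT and 5553, 5258 and 4966 in Delta-TRRAP, and MAT2B, the regulatory subunit of a methionine adenosyltransferase, with 2515, 2800 and 2581 against 4373, 4362 and 4612. Both were separated, at 0.59 ± 0.0530 (SE) and 0.76 ± 0.0544 (SE).

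In the chromatin and transcription group, 3 of 7 members were past the threshold and higher, 2 were lower and 2 did not pass, with a median log2 fold change of 0.14. AFF4, the scaffold of the super elongation complex, had 4257, 4171 and 4550 normalized counts in WT and 8077, 9422 and 6748 in Delta-TRRAP. The groups were well apart, at 0.90 ± 0.0894 (SE), and the Delta-TRRAP libraries differed from each other more than in most members. TAF7, a subunit of TFIID, had 11071, 10896 and 10270 in WT and 13907, 13122 and 13133 in Delta-TRRAP, a smaller and evenly separated difference of 0.32 ± 0.0517 (SE).

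KDM3B, a histone H3 lysine 9 demethylase, had 7113, 7445 and 7795 in WT and 8674, 9795 and 7852 in Delta-TRRAP, with one Delta-TRRAP library hardly above the highest WT library and a log2 fold change of 0.24 ± 0.0699 (SE). CXXC5, a CpG-binding zinc finger protein, had 4928, 4942 and 4630 in WT and 5010, 4987 and 5007 in Delta-TRRAP, or 0.05 ± 0.0490 (SE). PITX1, a homeodomain factor, had 2813, 2671 and 2603 against 3054, 2886 and 2979, or 0.14 ± 0.0511 (SE). Neither CXXC5 nor PITX1 passed the adjusted p, although in both all Delta-TRRAP libraries lay above all WT libraries. With JADE2 and NR3C1 lower, the 7 members of this group reached from -1.69 to 0.90.

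In the RNA and translation group, 7 of 14 members were past the threshold and higher, none was lower and 7 did not pass, with a median of 0.19. Beside RBM22 the higher members were LARP1, which binds mRNAs of ribosomal proteins (0.79 ± 0.0594, SE), IK, a spliceosome component (0.57 ± 0.0521, SE), and GEMIN5, the RNA-binding subunit of the SMN complex (0.47 ± 0.0631, SE). CNOT8, a deadenylase of the CCR4-NOT complex, had 0.23, ETF1, the translation termination factor, had 0.20, and PAIP2, an inhibitor of the poly(A)-binding protein, had 0.19. G3BP1, the stress granule nucleator, had 0.05 ± 0.0514 (SE), and RBM27 had 0.00 ± 0.0499 (SE), with 44.8% of its exon length shared with another annotated gene on the same strand. ANKHD1, with 0.23 ± 0.113 (SE), shares 75.8% of its exon length with a read-through gene and is uncertain.

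In the group of protein turnover, signalling and cell cycle, 10 of 12 members were past the threshold and higher and 1, NDFIP1, was lower, with a median of 0.30. Below TNIP1 and TTC1, the higher members lay between 0.21 for CSNK1A1 and 0.59 for FAM53C. They included CCNG1, cyclin G1 (0.52 ± 0.0494, SE), FNIP1, a partner of folliculin (0.38 ± 0.0546, SE), UBE2B, a ubiquitin-conjugating enzyme of DNA damage tolerance (0.33 ± 0.0598, SE), SKP1, the adaptor of SCF ubiquitin ligases (0.27 ± 0.0584, SE), and PPP2CA, the catalytic subunit of protein phosphatase 2A (0.23 ± 0.0529, SE). Other annotated genes on the same strand share 49.3% of the exon length of CSNK1A1 and 27.7% of that of PPP2CA.

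In the trafficking and cytoskeleton group, 11 of 14 tested members were past the threshold and higher, DIAPH1 and KIF3A were lower, and CEP120, a centriole protein, did not pass (-0.06 ± 0.0509, SE). This group had the highest median, 0.50. DCTN4, a dynactin subunit (0.97 ± 0.0535, SE), CLINT1, a clathrin adaptor (0.94 ± 0.0510, SE), and SNX24, a sorting nexin (0.85 ± 0.0696, SE), followed CYFIP2 and PDLIM4. The COPII coat proteins had close values, SEC24A with 0.51 ± 0.0569 (SE) and SAR1B with 0.48 ± 0.0498 (SE). ARHGAP26, a GTPase-activating protein of low count (0.51 ± 0.133, SE), CAMLG, which inserts tail-anchored proteins into the endoplasmic reticulum (0.46 ± 0.0580, SE), CTNNA1, alpha-catenin (0.37 ± 0.0598, SE), and TXNDC15 (0.34 ± 0.0610, SE) completed the higher members.

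In the group of metabolism, transport and surface proteins, 4 of 8 tested members were past the threshold and higher, HINT1 was lower and 3 did not pass, with a median of 0.43. The members that did not pass were SLC12A2, NDST1, an enzyme of heparan sulfate modification (-0.04 ± 0.0659, SE), and P4HA2, a collagen prolyl hydroxylase (0.10 ± 0.0560, SE). ALDH7A1, an aldehyde dehydrogenase, had 0 or 1 count in each library, and CD74, the invariant chain of class II antigen presentation, had 2 to 7. With DPYSL3, a neuronal cytoskeleton regulator at 0 to 4, these are the members on which the comparison says nothing.

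Along the chromosome the values were uneven. Members from RBM22 to MAT2B, 12 genes over chr5:150690792-163519558, centred on a log2 fold change of 0.87 (median), and all 12 lay above the median of expressed genes. The lowest of them was G3BP1 at 0.05. The 43 tested members before RBM22 had a median of 0.23, and all 10 members that escaped were among them. By library, the 12 distal members stood at 0.85, 0.92 and 0.84 log2 units over the WT mean in Delta-TRRAP, and the 43 others at 0.20 in all 3. The boundary at RBM22 was chosen after the values were seen, and no test is attached to it.

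Genes of the same stretch that are not members lie in the stretch that was chosen for being higher, so their values too are a description. The 115 other expressed genes between SNX24 and MAT2B had a median of 0.38, with 99 above the median of expressed genes and 16 not. From RBM22 on, 27 of them had a median of 0.91, with 26 above, and before it 88 had 0.30, with 73 above. In consecutive 5 Mb windows the median of all expressed genes was 0.99 in the first, of which only the part from SNX24 on is covered, 0.03 in the second, 0.25 to 0.31 in the next 4, 0.50 in the seventh, 1.07 in the eighth and 0.83 in the ninth. Members escaped in the second to the fifth window only, with 1, 5, 1 and 3 of them.

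**Figure D3:**
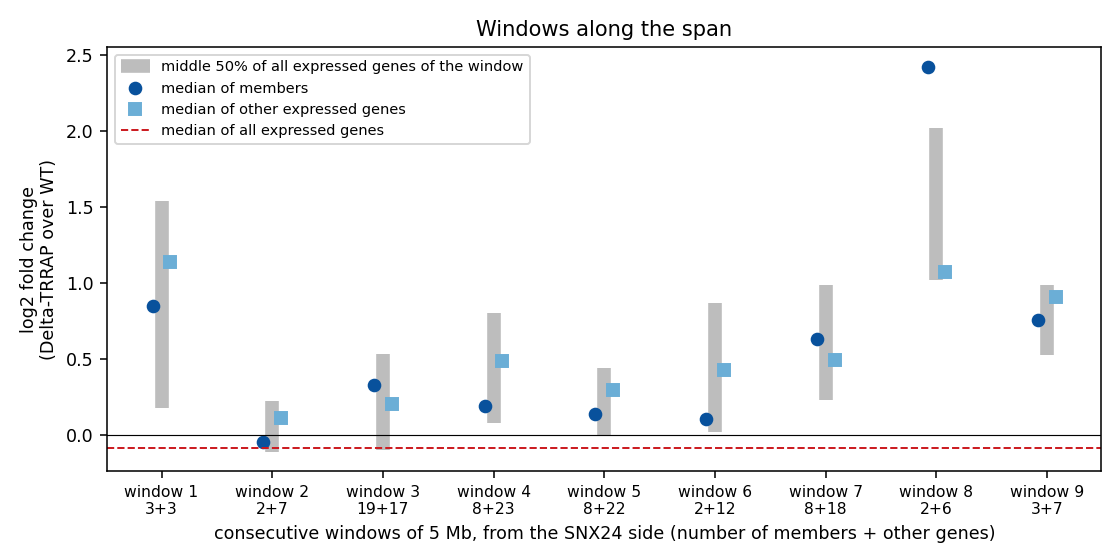
Median log2 fold change of Delta-TRRAP over WT (vertical axis) in consecutive windows of 5 Mb along the stretch (horizontal axis), for members (circles) and other expressed genes (squares), with the middle 50% of all expressed genes of a window (grey bars) and the median of all expressed genes (dashed line). Numbers under a window give members and other genes. The last windows, with medians over all their genes of 1.07 and 0.83, stand above the middle ones, and the member value of the eighth rests on 2 genes, CYFIP2 and CLINT1.

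The members that fell were partly clustered. From DIAPH1 to NR3C1 the map holds 13 expressed genes, 4 of them members, and 7 of the 13 lay at or below the median of expressed genes, with a median of -0.40. HDAC3, a histone deacetylase encoded next to DIAPH1, had -0.46, ARAP3 had -1.82 and GNPDA1 had -1.05, whereas the member ARHGAP26 between NDFIP1 and NR3C1 had 0.51. TAF7, before DIAPH1, had 0.32, and YIPF5, after NR3C1, had 0.22. This run was singled out after its values were seen. KIF3A likewise was followed by lower genes past the threshold, SEPTIN8 with -0.39, SHROOM1 with -0.54 and UQCRQ with -0.33, before the higher member AFF4, while HINT1, DDX46 and JADE2 stood alone between genes above or near the median of expressed genes. The clustered protocadherin genes of the stretch contributed little, since 18 of 59 were tested and 0 averaged 100 or more normalized counts.

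**Figure D4:**
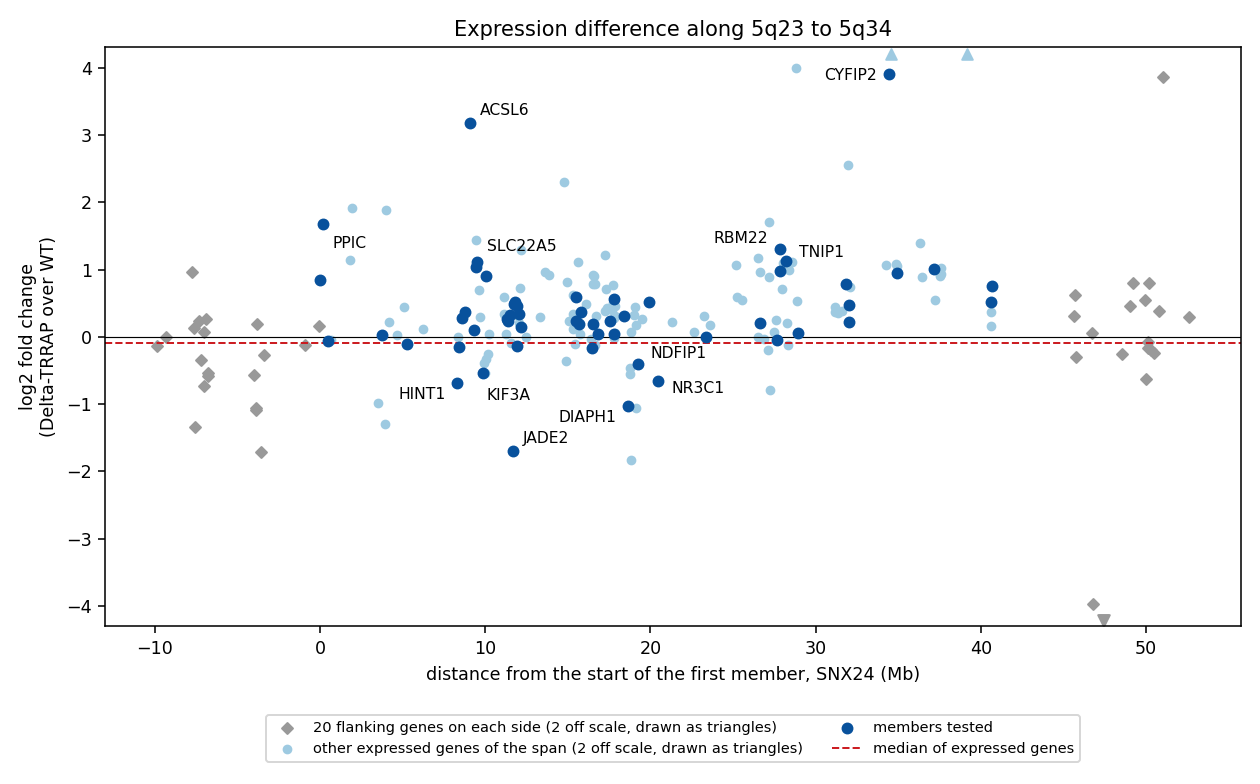
Log2 fold change of Delta-TRRAP over WT (vertical axis) against distance in Mb from the start of SNX24 (horizontal axis) for members, other expressed genes of the stretch and 20 expressed genes on each side, with the median of expressed genes as a dashed line. Triangles mark genes beyond the axis. Members before RBM22 scatter on both sides of the line, DIAPH1, NDFIP1 and NR3C1 lie under it, and all members from RBM22 on lie above it.

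At the edges, SNX24 (0.85) and PPIC (1.67) were the first members, and SNX2 (0.17) was the last expressed gene before them. CCNG1 (0.52) and MAT2B (0.76) were the last members, and the next expressed genes, RARS (0.31) and PANK3 (0.63), lie within the stretch that the members were picked from without being members. The 20 expressed genes on each side had medians of -0.20 before and -0.01 after the members. RARS and PANK3 are counted among the 20 after, which reached from -5.75 for LCP2 to 3.86 for CPEB4. The 20 before reached from -1.71 to 0.97. The 329 other expressed genes of chromosome 5, outside the stretch from SNX24 to MAT2B, had a median of -0.29, below the -0.09 of the other chromosomes.

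Strand, level and length were set beside the values. Members on the plus strand (32) and on the minus strand (23) both had a median of 0.28. Across the 55 tested members, which share the same 6 libraries, the Spearman correlation of log2 fold change was 0.18 with map position, -0.10 with mean level per kb and -0.08 with exon length, given as descriptions.

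Close relatives of members that are encoded on other chromosomes served as a side-by-side comparison. Of 38 such relatives, 37 were tested, with a median of -0.02 on the log2 scale, and in 22 of 36 pairs with both genes tested the member was the higher one. The median difference of a pair was 0.22. CYFIP2 (3.90) stood beside CYFIP1 (-0.31), ACSL6 (3.18) beside ACSL1 (-0.93), PPIC (1.67) beside PPIB (-0.44), and LARP1 (0.79) beside LARP1B (-0.46). The reverse was seen too, with the relative higher beside a risen member: PAIP2 (0.19) beside PAIP2B (2.5) and RAPGEF6 (0.28) beside RAPGEF2 (0.96). Among members that fell, JADE2 (-1.69) stood beside JADE1 (-0.45) and DIAPH1 (-1.03) beside DIAPH3 (0.24). CCNG1 (0.52) and CCNG2 (0.48) had like values, as did KDM3B (0.24) and KDM3A (0.23).

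**Figure D5:**
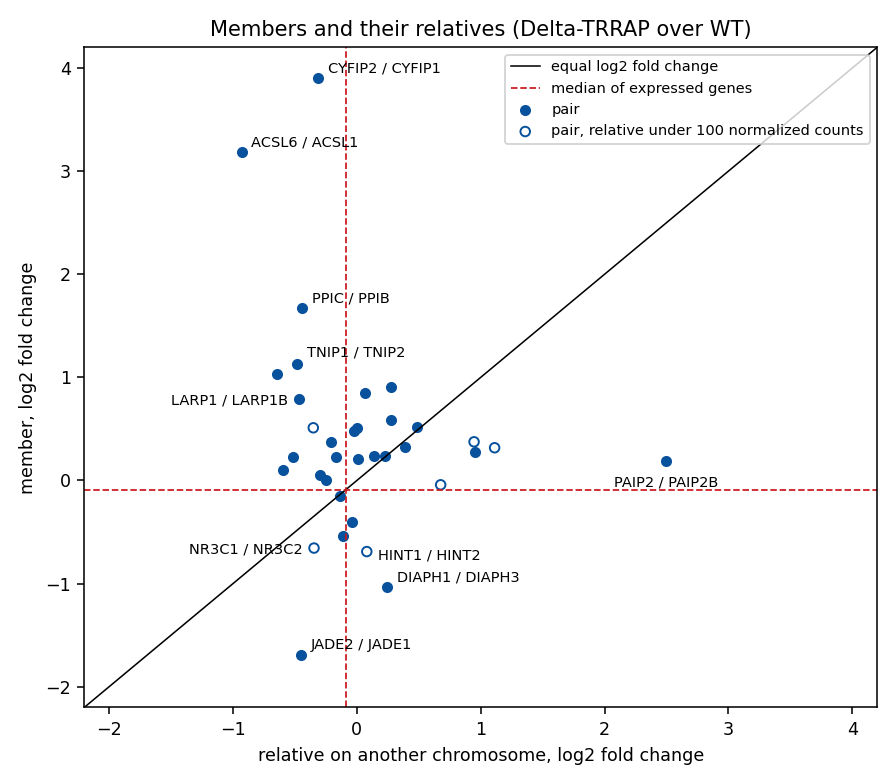
Log2 fold change of Delta-TRRAP over WT for a member (vertical axis) and its relative on another chromosome (horizontal axis) in 35 pairs, with the line of equal values (solid) and the median of expressed genes (dashed). Open circles have a relative under 100 normalized counts. Of the pairs, 22 lie above the line of equal values, CYFIP2 and ACSL6 furthest.

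Of 26 genes of the long arm with known roles in myeloid cells, all inside the stretch, 20 were tested, 12 were past the threshold and higher and 4 were lower, with a median of 0.24. Members in this list that were higher were CSNK1A1, CTNNA1, KDM3B and PPP2CA, those that were lower were JADE2, DIAPH1 and NR3C1, CXXC5 did not pass and CD74 was not tested. Its other genes included RPS14, a ribosomal protein (0.25 ± 0.0604, SE), and HNRNPA0, an RNA-binding protein that was lower (-0.36 ± 0.0534, SE).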

How the data were processed

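Poly(A) RNA was sequenced in 6 libraries and, per the labels and the methods of the study, reads were aligned to hg38 with STAR, keeping unique alignments, and counted with HTSeq 2.0.2 (reverse stranded, union mode) on GENCODE release 32. The authors deposited these raw read counts per gene, which were used as deposited. A read in exons of several genes on one strand is not counted in union mode. The deposited table of normalized values, which holds 3 further per-sample columns of another condition, and the table of the authors' own comparison (fold changes and p-values) were not used.

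The test used edgeR 4.0.16 (R 4.3.3) with TMM factors, a design of group alone and the quasi-likelihood F test. Genes averaging 5 or more normalized counts over the 6 libraries entered it, and genes averaging 100 or more are called expressed. A normalized count is the raw count divided by its TMM-scaled library size relative to the geometric mean. The adjusted p threshold was 0.01 (Benjamini-Hochberg over all tested genes) and a call also needed a fold change of at least 2. The SE of a log2 fold change is its size divided by the root of the F statistic. Levels per kb used merged exon lengths of GENCODE release 44 on GRCh38, which also gave positions and shared exons. MATR3 had 2 gene IDs, and the one with more counts was used. The fit was checked on simulated counts.

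The members, lists and tests were chosen with earlier results of these data known. Values in every library are given for the 8 members with the highest and the 8 with the lowest log2 fold change, those nearest the median and quartiles (both where tied), and the chromatin and transcription group. The lists of markers, relatives and myeloid genes were written from general knowledge. Alternatives were other scalings and filters, DESeq2 1.42.0, limma-voom (limma 3.58.1), a replicate block, other thresholds and leaving out each library. 1 pair of a member and its relative, counted in the summary of the pairs, is not reported here by name or drawn.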

Additional observations from a re-analysis of the deposited data

How the results depend on the processing

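The members' median was above 0 and above the median of expressed genes under every alternative run. The median of all expressed genes itself lay at -0.09 and ranged from -0.114 to 0.0451, highest with library size alone, so the members are read relative to it: the members' median was 0.37 above it, and 0.364 to 0.418 above it over the 15 other fits. Members at or below it numbered 8 to 11. NDST1 joined them without Delta-TRRAP replicate 2, and CD74, tested only without a filter, joined them there. MATR3 was above the median of expressed genes without WT replicate 1, SLC12A2 without Delta-TRRAP replicate 1, and SLC12A2 and DDX46 with an expressed minimum of 1000. The other 7 of the 10 escaping members were at or below it in each of these.

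The member median was 0.382 with upper quartile scaling, 0.413 with library size alone, 0.25 without a filter, 0.354 with a minimum of 50 and 0.273 to 0.32 when libraries were left out. The median of other genes of the stretch was, in the same order, 0.477, 0.509, 0.352, 0.449 and 0.357 to 0.418, and 0.307 with an expressed minimum of 1000. The flank median was -0.0266, 0.0054, -0.152, -0.0548 and -0.173 to -0.103. The relatives' median was 0.0782, 0.11 and -0.0554 under the first 3 and -0.0439 to -0.0174 without libraries. Members called lower went from 2 to 1 (JADE2 alone) with upper quartile scaling, library size alone, a minimum of 50, and without WT replicate 3 or Delta-TRRAP replicate 3. At a fold of 1.5, 15 members were called higher and 4 lower.

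Of 825 values of single members under 15 alternatives, 770 kept direction and side of the threshold. Those that changed sign did not pass the threshold either way: RBM27 with RLE (-0.0056), DESeq2 (-0.0055) and no filter (-0.0207), and -0.0247 to 0.035 without libraries, PHAX without a filter (-0.00208), CEP120 and NDST1 with upper quartile scaling (0.0455, 0.0579), library size alone (0.0775, 0.0903) and a minimum of 50 (0.0172, 0.0299), SLC12A2 with library size alone (0.0196), MATR3 at -0.385 to 0.0124 without libraries and NDST1 at -0.0995 to 0.0253. With single libraries left out, the adjusted p was missed by PAIP2 and CSNK1A1 (any WT replicate or Delta-TRRAP replicate 1), KDM3B (WT replicates 1 and 2, Delta-TRRAP replicates 1 and 2), ARHGAP26 (WT replicate 1, Delta-TRRAP replicates 1 and 2), RAPGEF6 (WT replicates 1 and 2) and ETF1 (WT replicate 1, Delta-TRRAP replicate 1). The adjusted p was newly passed by PITX1 and P4HA2 (upper quartile scaling, library size alone), PITX1 also with a minimum of 50 and without Delta-TRRAP replicate 2, by CXXC5, G3BP1, PHAX and WDR55 (library size alone), and by CDC42SE2 and DDX46 as given above. Members past it and higher, 35 here, numbered 33 to 41, and 29 to 35 without single libraries.

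Replicate numbers are shared by the groups, but same-numbered libraries did not deviate together (correlations of deviations of -0.0108, -0.035 and -0.0241), so they do not pair the libraries. With a replicate block the member median was 0.28 and 33 members were past the adjusted p and higher, without KDM3B and PAIP2. Each group is 1 clone with 3 libraries, which limits every value to these clones. Low counts limit MATR3, ANKHD1 and ARHGAP26.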
